A study of Mus musculus with 22 samples.

Results

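Hcrt, Qrfp, Hcrtr1 and Hcrtr2 are the 4 genes described here, out of 18820 genes measured in the mouse hypothalamus. They were chosen by name: each is the gene that the platform annotation pairs with its probe set, and each had 1 probe set, so no choice between probe sets was needed. Hcrt encodes the precursor of the peptides orexin A and orexin B (hypocretins). Qrfp encodes the precursor of the RF-amide peptide QRFP. Hcrtr1 and Hcrtr2 encode the orexin receptors 1 and 2. In the mouse QRFP acts on the receptors encoded by Qrfpr and Qrfprl, which are described with the members as its receptors.

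The mice were male C57BL/6 animals, 6 weeks old at the start and housed singly, from a study of appetite, cachexia and hypothalamic serotonin. Lewis lung carcinoma, a transplantable mouse lung tumour line, was injected into hind leg muscle, and the hypothalamus was taken under ketamine and xylazine anaesthesia from 5 mice on day 10, from 7 on day 14 and from 6 on day 17. A control group of 4 mice was killed on day 14 only; whether these mice received an injection is not given in the sources used here. Each mouse gave 1 array, and the values are log2 levels. The comparisons of days 10 and 17 with control therefore also contain a difference in day, and the 3 comparisons with control share the same 4 control mice.

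Orexin neurons lie in the lateral hypothalamus and neighbouring areas and send axons through most of the brain. They promote wakefulness, arousal and food seeking, and loss of these neurons is the known lesion of narcolepsy with cataplexy. Orexin A binds both receptors, while orexin B prefers receptor 2, and both receptors couple mainly to Gq, phospholipase C and calcium entry. The histamine neurons of the tuberomammillary nucleus carry receptor 2, and the noradrenaline neurons of the locus coeruleus carry receptor 1. QRFP is made by other neurons of the lateral and medial hypothalamus, raises food intake when given into the brain of rodents, and was used to mark the mouse neurons that induce a torpor-like state.

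All 4 members, Qrfpr and Qrfprl lay above the background measure, 3.87 on the log2 scale, on all 22 arrays. Of 14 hypothalamus markers, 13 had a mean above it. Crh, the corticotropin-releasing hormone gene, lay below it. Markers of adjoining thalamus were present on all arrays, and the mean of the 10 genes of that list ran from 6.76 to 8.00 in controls. It ran from 6.66 to 7.14 on day 10, from 6.68 to 7.61 on day 14 and from 6.68 to 7.32 on day 17. All 10 thalamus markers had a lower mean in each tumour-bearing group than in controls, and 0 of them passed the threshold (limma, with 6, 1 and 4 at an unadjusted p below 0.05). The mean of Alas2 and Slc4a1, the 2 measured red cell markers, was 4.85 in controls and 5.87, 6.71 and 7.11 on days 10, 14 and 17. Both rose on days 14 and 17 (limma adjusted p = 0.00738 and 0.0288 for Alas2 and Slc4a1 on day 14, 0.00128 and 0.00372 on day 17). Of the 14 hypothalamus markers, 0 passed on day 10, 1 rose on day 14 (Ghrh, growth hormone-releasing hormone) and 2 rose on day 17 (Ghrh and Npy, neuropeptide Y). The levels describe dissected tissue as a whole, in which fewer cells of a type and less RNA per cell cannot be told apart.

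The promoters of the peptide genes, Hcrt and Qrfp, are shown as a description of these genes. Their part in the measured levels was not tested. The 100 bases before each start are from RefSeq (GRCm38.p6), 5′ to 3′ on the minus strand, where both genes lie. The Hcrt window is chr11:100762932-100763031 and the Qrfp window is chr2:31810581-31810680. Capitals mark a match to the TATA box letters TATAAA.
Hcrt: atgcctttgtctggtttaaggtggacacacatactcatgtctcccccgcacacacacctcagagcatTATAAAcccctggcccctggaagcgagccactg
Qrfp: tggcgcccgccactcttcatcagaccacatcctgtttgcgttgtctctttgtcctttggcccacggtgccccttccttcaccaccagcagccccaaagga
In Hcrt the match begins 33 bases before the start. TATAAA on either strand occurs in 5.56% of 32851 RefSeq promoters within these 100 bases. The 250 bases before the start were also searched on both strands for TATAAA (12.4% of promoters), the forkhead letters TGTTTAC (3.17%), the cyclic AMP response element TGACGTCA (1.55%) and the NBRE letters AAAGGTCA (1.34%). Beyond the one TATA box of Hcrt, none of these letters occurred in the windows of Hcrt, Qrfp, Hcrtr1 (3 starts) or Hcrtr2.

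Hcrt had a lower mean in all 3 tumour-bearing groups than in controls, and the difference did not pass the threshold on any day. The 4 controls stood at 10.67, 10.77, 10.47 and 10.31. The 5 mice of day 10 stood at 10.49, 10.16, 9.17, 10.55 and 10.24. On day 14 the 7 mice ranged from 9.33 to 10.42 with a median of 10.34, and on day 17 the 6 mice ranged from 10.01 to 10.37 with a median of 10.26. Each group overlapped with the controls: on days 14 and 17 the overlap was with control replicate 4 alone, the lowest control, and on day 10 replicates 1 and 4 also lay above control replicate 3. Of the tumour-bearing mice, 3 of 5, 3 of 7 and 5 of 6 lay below every control on days 10, 14 and 17, and all 18 lay below the control mean. Of the 4 members, 0 had groups that did not overlap with control on any of these days, where 4.45%, 1.84% and 4.96% of all genes did.

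The group means of Hcrt were 10.55 ± 0.21 in controls, 10.12 ± 0.55 on day 10, 10.15 ± 0.39 on day 14 and 10.23 ± 0.12 on day 17 (SD, n = 4, 5, 7 and 6). The differences from control were -0.43 ± 0.22 on day 10, -0.40 ± 0.21 on day 14 and -0.33 ± 0.21 on day 17 (SE, log2; limma adjusted p = 0.505, 0.509 and 0.456). The mean of the tumour-bearing groups differed by -0.39 ± 0.18, with a 95% interval from -0.77 to -0.01 (limma adjusted p = 0.329, unadjusted p = 0.0462). Between tumour-bearing groups Hcrt differed by at most 0.10 ± 0.20, between days 10 and 17. The wide spreads of days 10 and 14 came from 1 mouse each, replicate 3 of both groups, and without them the differences were -0.19 on day 10 and -0.26 on day 14.

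Two-sided exact permutation tests of Hcrt gave p = 0.159, 0.0818 and 0.00952 on days 10, 14 and 17, and 0.0401 for the 18 tumour-bearing mice together. The smallest p these designs allow is 0.00794, 0.00303, 0.00476 and 0.000137. These belong to 16 exact tests of the 4 members and are not adjusted. Hcrt was among the genes examined earlier in these data, and its low value on day 17 is no independent evidence. Leaving out control replicate 1, 2 or 3 gave p = 0.114, 0.147 and 0.0609 for all tumour-bearing mice in the exact test of Hcrt, and leaving out day 14 replicate 3 gave 0.0668. Fitted with the mean of the thalamus markers as a covariate, the differences were -0.34, -0.32 and -0.24. With the mean of 11 hypothalamus markers as a covariate (all but Trh, Gal and Hdc, which stand in other lists) they were -0.55, -0.07 and -0.16, the same direction on each day and a smaller difference on days 14 and 17. Ghrh and Npy are part of this covariate and rose in tumour-bearing mice, Ghrh on days 14 and 17 and Npy on day 17. This fit therefore cannot tell tissue content from a change in these genes.

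**Figure D1:**
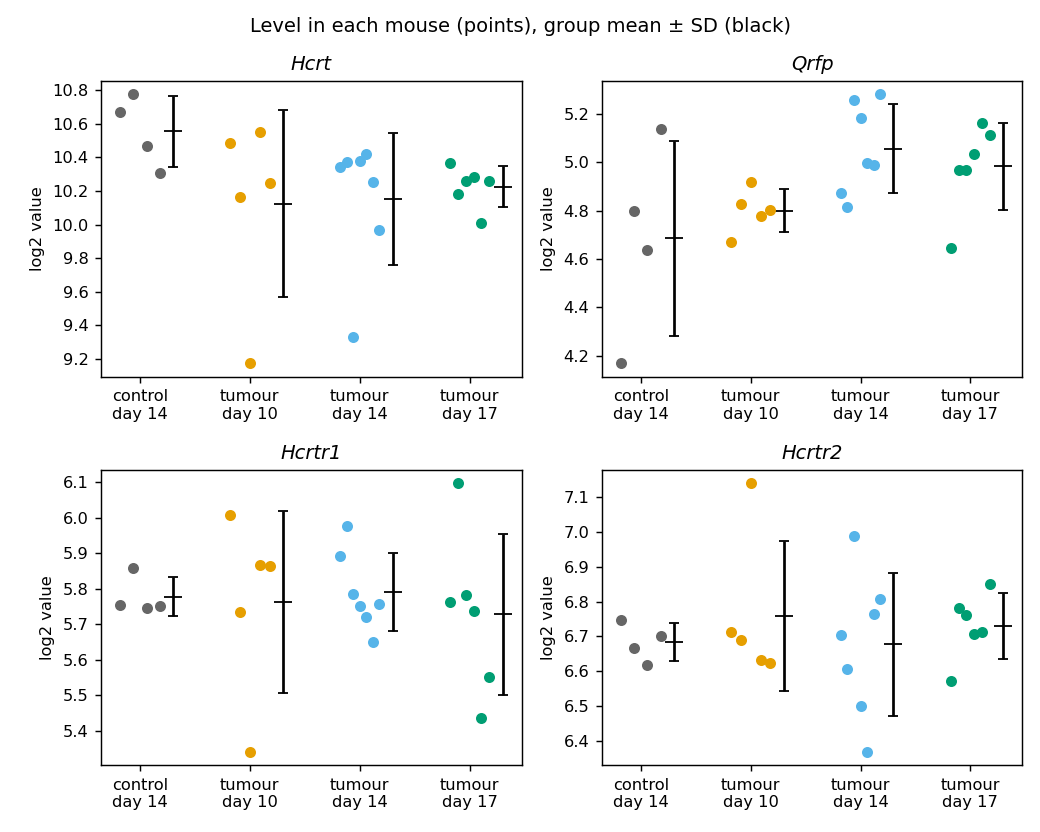
Levels of Hcrt, Qrfp, Hcrtr1 and Hcrtr2 in each mouse, as log2 values on the y axis, for controls and the tumour-bearing groups of days 10, 14 and 17 on the x axis. Each point is 1 mouse, in order of replicate number, and the black bar is the group mean ± SD. One mouse of day 10 and one of day 14 stand apart at 9.17 and 9.33 for Hcrt and at 7.14 and 6.99 for Hcrtr2.

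Qrfp had a higher mean in the tumour-bearing groups, most on days 14 and 17, and here too no difference passed the threshold. The 4 controls stood at 4.17, 4.80, 4.64 and 5.14, a wider spread than in any tumour-bearing group. The 5 mice of day 10 stood at 4.67, 4.83, 4.92, 4.78 and 4.80. On day 14 the 7 mice ranged from 4.82 to 5.28 with a median of 4.99, and on day 17 the 6 mice ranged from 4.65 to 5.16 with a median of 5.00. The groups overlapped on every day: 0 of 5, 3 of 7 and 1 of 6 tumour-bearing mice lay above every control. The lowest Qrfp of all mice was control replicate 1 and the highest control was replicate 4.

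The group means of Qrfp were 4.68 ± 0.40 in controls, 4.80 ± 0.09 on day 10, 5.06 ± 0.19 on day 14 and 4.98 ± 0.18 on day 17 (SD, n = 4, 5, 7 and 6). The differences from control were 0.11 ± 0.14, 0.37 ± 0.13 and 0.30 ± 0.13 on days 10, 14 and 17 (SE, log2; limma adjusted p = 0.800, 0.285 and 0.267). The mean of the tumour-bearing groups differed by 0.26 ± 0.11 (limma adjusted p = 0.297), and day 14 exceeded day 10 by 0.26 ± 0.12 (limma adjusted p = 0.684). Exact permutation tests gave p = 0.587, 0.0485 and 0.138 on days 10, 14 and 17 and 0.0487 for all tumour-bearing mice.

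Control replicate 1 weighed on each of these values. Without it the Qrfp differences were -0.06, 0.20 and 0.13 on days 10, 14 and 17, and without control replicate 4 they were 0.26, 0.52 and 0.45. The exact p of Qrfp on day 14 was 0.192 without control replicate 1 and 0.0667, 0.108, 0.0857, 0.0810, 0.0619, 0.0619 and 0.0857 without control replicates 2 and 3 and day 14 replicates 3, 4, 5, 6 and 7. The 2 controls highest in the mean of the thalamus markers were the 2 lowest in Qrfp, and over all mice the relation within groups was inverse and did not pass (r = -0.64, permutation, adjusted p = 0.0935 over 40 relations). Fitted with that mean as a covariate, the Qrfp differences were -0.09, 0.20 and 0.10. How much of the difference goes with tissue outside the hypothalamus was not tested beyond this fit.

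**Figure D2:**
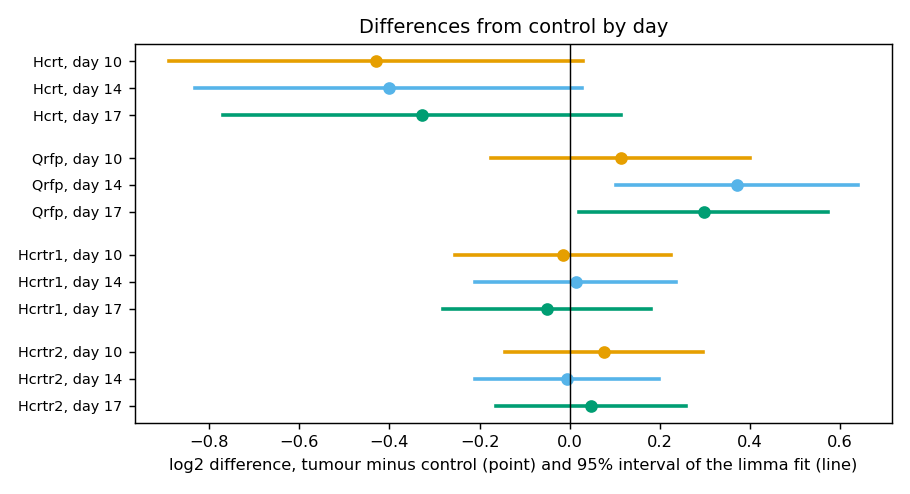
Differences from control of the 4 members on days 10, 14 and 17, on the log2 scale (x axis, tumour minus control). Points are the fitted differences and lines their 95% intervals; all Hcrt points lie below 0, all Qrfp points lie above 0, and the receptors lie within 0.08 of 0.

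The receptor genes had nearly equal means in all groups. Hcrtr1 stood at 5.75, 5.86, 5.75 and 5.75 in the 4 controls and at 6.01, 5.74, 5.34, 5.87 and 5.86 in the 5 mice of day 10. It ranged from 5.65 to 5.98 on day 14 (median 5.76) and from 5.44 to 6.10 on day 17 (median 5.75). The tumour-bearing mice lay on both sides of the controls on each day. Hcrtr1 differed from control by -0.01 ± 0.12, 0.01 ± 0.11 and -0.05 ± 0.11 on days 10, 14 and 17 (SE, log2; limma adjusted p = 0.977, 0.980 and 0.859). Its 95% intervals ran from -0.25 to 0.22, from -0.21 to 0.24 and from -0.28 to 0.18, so smaller changes in either direction could not be seen with these arrays. The exact permutation tests gave p = 0.905, 0.779 and 0.757.

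Hcrtr2 stood at 6.75, 6.67, 6.62 and 6.70 in the 4 controls and at 6.71, 6.69, 7.14, 6.63 and 6.62 in the 5 mice of day 10. It ranged from 6.37 to 6.99 on day 14 (median 6.70) and from 6.57 to 6.85 on day 17 (median 6.74). One mouse of day 10 and one of day 14, the same 2 that were lowest in Hcrt, were the 2 highest of all 22. Hcrtr2 differed from control by 0.08 ± 0.11, -0.01 ± 0.10 and 0.05 ± 0.10 (SE, log2; limma adjusted p = 0.825, 0.992 and 0.853). The 95% intervals ran from -0.14 to 0.29, from -0.21 to 0.20 and from -0.16 to 0.26, and the exact permutation tests gave p = 0.794, 0.964 and 0.386.

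The QRFP receptor genes did not pass the threshold either. Qrfpr means were 6.38 ± 0.23 in controls and 6.23 ± 0.13, 6.52 ± 0.13 and 6.29 ± 0.25 on days 10, 14 and 17 (SD). Its highest mean was on day 14, 0.30 ± 0.10 above day 10 (limma unadjusted p = 0.00940, adjusted p = 0.547) and 0.24 above day 17. Qrfprl means were 5.57 ± 0.20 in controls and 5.34 ± 0.09, 5.49 ± 0.20 and 5.43 ± 0.10 on days 10, 14 and 17. It differed from control by -0.23 ± 0.10 on day 10 (SE, log2; limma adjusted p = 0.424).

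Counted over the 4 members, 0 passed the threshold on day 10, 0 on day 14 and 0 on day 17, and 0 for the mean of the tumour-bearing groups. Over all 18820 genes 0.106%, 0.218%, 1.12% and 0.643% passed. At an unadjusted p below 0.05, limma counted 0 members on day 10, 1 on day 14 (Qrfp), 1 on day 17 (Qrfp) and 2 for the mean of the groups (Hcrt lower, Qrfp higher), against 10.7%, 10.5%, 16.6% and 14.8% of all genes. Between tumour-bearing groups 0 members passed, as did 0.00531% of all genes between days 10 and 14 and 0% between days 14 and 17 and between days 10 and 17. At an unadjusted p below 0.05 the one member counted there was Qrfp, higher on day 14 than on day 10, against 7.13%, 4.17% and 8.3% of all genes. An F test over the 4 groups gave adjusted p = 0.635 for Hcrt, 0.372 for Qrfp, 0.974 for Hcrtr1 and 0.932 for Hcrtr2, and called 0.335% of all genes. The median difference of the 4 members was 0.03, 0.00 and -0.00 on days 10, 14 and 17, and that of all genes was 0.00, -0.00 and -0.01.

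Genes that make, carry or answer these peptides, and genes of neighbouring neurons, were read from lists. Of these, 1 gene passed the threshold, and it was of the neighbour list. Of 10 measured lateral hypothalamic and zona incerta neighbour genes, 1 fell on day 17 and 0 on days 10 and 14. That gene was Nts, the neurotensin precursor of lateral hypothalamic neurons. Nts was 7.38 ± 0.09 in controls (range 7.30 to 7.51), and ranged from 6.60 to 7.20 on day 10, from 6.65 to 7.46 on day 14 and from 6.55 to 6.93 on day 17. It lay below every control in all mice of days 10 and 17. Nts fell by 0.70 ± 0.13 on day 17 (SE, log2; limma adjusted p = 0.0114), and on days 10 and 14 it differed by -0.63 ± 0.14 and -0.44 ± 0.13 (limma adjusted p = 0.0914 and 0.172). The median of that list was -0.09, 0.04 and 0.02 on days 10, 14 and 17, against 0.00, -0.00 and -0.01 for all genes.

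Of 6 measured precursor processing genes, 0 passed on any day. Scg5, which encodes the helper protein of proprotein convertase 2, differed by 0.16 ± 0.06 on day 17 (limma adjusted p = 0.181), and Pam, the enzyme that amidates orexins and RF-amide peptides, by 0.13 ± 0.08 on day 14 (limma adjusted p = 0.596). Of 6 orexin neuron genes besides Hcrt, 0 passed. Igfbp3, an IGF-binding protein that orexin neurons express, differed by 0.15 ± 0.11, 0.40 ± 0.10 and 0.42 ± 0.10 on days 10, 14 and 17 (limma adjusted p = 0.632, 0.104 and 0.0528). Lhx9, a transcription factor of developing orexin neurons, differed by -0.53 ± 0.23, -0.52 ± 0.21 and -0.60 ± 0.22 (limma adjusted p = 0.412, 0.377 and 0.168). Lhx9 and Igfbp3 are also expressed by cells other than orexin neurons.

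Of 12 receptor signalling genes, 0 passed on any day, and their median difference was -0.07, -0.06 and -0.08 on days 10, 14 and 17. Prkce, the protein kinase C epsilon gene, differed by -0.23 ± 0.06, -0.18 ± 0.06 and -0.19 ± 0.06 (limma adjusted p = 0.174, 0.247 and 0.114), and Plcb4, a Gq-activated phospholipase C, by -0.21 ± 0.06, -0.15 ± 0.06 and -0.17 ± 0.06 (limma adjusted p = 0.243, 0.372 and 0.164). Prkcd of this list was also one of the 10 thalamus markers. The mice highest in the mean of the receptor signalling list were also the highest in the thalamus marker mean. Control replicates 3 and 1 stood at 8.22 and 8.08 in the list and at 8.00 and 7.57 in the thalamus markers. Day 14 replicate 2 stood at 8.09 and 7.61, and day 17 replicate 1 at 8.04 and 7.32. The part of thalamus tissue in these differences was not tested. Of 9 measured RF-amide peptide and receptor genes besides Qrfp, 0 passed. Npvf, the RFRP precursor, differed by 0.26 ± 0.12, 0.32 ± 0.11 and 0.19 ± 0.11 (limma adjusted p = 0.435, 0.259 and 0.393). Of 7 histamine neuron genes, 0 passed. Hrh3, the histamine autoreceptor, differed by -0.24 ± 0.08 on day 10 (limma adjusted p = 0.288), and Hnmt, which inactivates histamine, by 0.20 ± 0.07 on day 14 (limma adjusted p = 0.279).

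Between mice of a group, Hcrt and Hcrtr2 moved in opposite directions. Each array's deviation from its group mean was used, over 22 arrays, with 100000 permutations within groups and adjustment over the 6 pairs of members. Pearson's r of Hcrt and Hcrtr2 was -0.80 (permutation p = 0.00089, adjusted p = 0.00534) and Spearman's rho was -0.67 (permutation p = 0.00165, adjusted p = 0.00837). Without the 2 arrays farthest from the median in Hcrt r was -0.50 (permutation p = 0.0321), so part of the value rests on them. It was -0.85 in the 9 samples of the earlier accession run and -0.80 in the 13 of the later run. The labels do not say whether these runs of accessions were handled apart.

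Hcrt and Qrfp also moved in opposite directions, with r = -0.47 (permutation p = 0.0024, adjusted p = 0.0072) and rho = -0.61 (permutation p = 0.00279, adjusted p = 0.00837). Without 2 arrays r was -0.51 (permutation p = 0.0148), and it was -0.64 and -0.42 in the earlier and later run. Hcrt and Hcrtr1 gave r = 0.55 (permutation p = 0.0243, adjusted p = 0.0486) and rho = 0.47 (permutation p = 0.0297, adjusted p = 0.0513), and so passed in r alone. Without 2 arrays their r was 0.41 (permutation p = 0.0435), and it was 0.32 and 0.77 in the earlier and later run. The other 3 pairs passed in neither measure: Qrfp and Hcrtr1 gave r = -0.31, Qrfp and Hcrtr2 gave r = 0.28, and Hcrtr1 and Hcrtr2 gave r = -0.37.

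**Figure D3:**
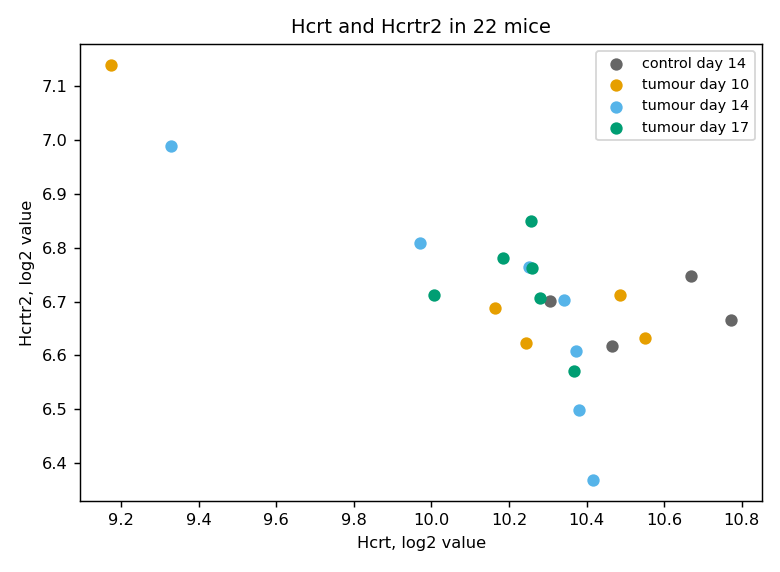
Hcrt (x axis) against Hcrtr2 (y axis), both as log2 values, in 22 mice coloured by group. The 2 mice at the upper left, at 9.17 and 9.33 for Hcrt, have the highest Hcrtr2.

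Genes of the lists deviated with the members in both directions. Of 200 relations of a member with a listed gene, 19 had an adjusted p of r below 0.05, 7 for Hcrt, 8 for Qrfp, 1 for Hcrtr1 and 3 for Hcrtr2; the genes below were named for that after their values were seen. In 10 of these the adjusted p of rho was below 0.05 too. Hdc, the enzyme of histamine synthesis, gave r = -0.74 with Hcrt (rho = -0.63; permutation, adjusted p = 0.0160 and 0.0442). It gave r = 0.69 with Qrfp (rho = 0.67, permutation, adjusted p = 0.0184 and 0.0442) and r = 0.73 with Hcrtr2 (rho = 0.73, permutation, adjusted p = 0.0184 and 0.0430). Pam gave r = -0.66 with Hcrt (rho = -0.65, permutation, adjusted p = 0.0184 and 0.0442) and r = 0.77 with Qrfp (rho = 0.76, permutation, adjusted p = 0.0020 and 0.0420). The other genes of the histamine neuron list followed Hdc in part. Slc18a2, the vesicular monoamine transporter, gave r = 0.12 with Hcrt, -0.31 with Qrfp and 0.04 with Hcrtr2, and Hrh2, a histamine receptor, gave 0.46, -0.38 and -0.35. Hrh3, Maob, Hnmt and Hrh1 had the sign of Hdc with each of these members. They gave r = -0.60, -0.40, -0.19 and -0.11 with Hcrt and 0.09, 0.21, 0.35 and 0.47 with Qrfp. With Hcrtr2 they gave 0.52, 0.31, 0.11 and 0.08. Tac1, the substance P precursor, gave r = -0.78 with Hcrt and 0.63 with Qrfp (rho = -0.62 and 0.70, permutation, adjusted p of rho = 0.0557 and 0.0442). Meis2, a homeobox gene, gave r = 0.77 with Hcrt, -0.58 with Qrfp and -0.72 with Hcrtr2 (permutation, adjusted p of rho = 0.0663, 0.0557 and 0.0442).

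The orexin neuron genes besides Hcrt did not share a direction. With Qrfp, Pdyn, the dynorphin precursor, gave r = 0.77 (rho = 0.68, permutation, adjusted p = 0.0020 and 0.0442), while Lhx9 gave -0.68 (permutation, adjusted p = 0.0443, and 0.0727 for rho), Ebf2 -0.49 and Igfbp3 -0.23. With Hcrt, Pdyn gave r = -0.58 and did not pass, Nptx2, a synaptic pentraxin gene, gave -0.63 and Ebf2, a transcription factor gene, gave 0.62 (permutation, adjusted p = 0.0480 and 0.0491, and 0.108 and 0.152 for rho). Foxb1, a transcription factor of the mammillary and lateral hypothalamus, gave r = 0.82 with Qrfp (rho = 0.69, permutation, adjusted p = 0.0080 and 0.0442). The other 4 measured mammillary and posterior hypothalamus markers gave r between -0.38 (Foxa1) and 0.09 (Barhl1) with Qrfp, and the list mean gave -0.06. Kiss1r, the kisspeptin receptor gene, gave r = 0.70 with Hcrtr1 (rho = 0.63, permutation, adjusted p = 0.0480 and 0.0557). Without the 2 arrays farthest from the median r stayed on the same side of 0 in all named pairs with an adjusted p of r below 0.05. It was -0.56 for Hcrt with Hdc and 0.47 for Hcrt with Meis2, and 0.69 and 0.77 for Qrfp with Pdyn and Foxb1.

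Of 40 relations of a member with the mean of a marker list, 5 had an adjusted p of r below 0.05, all of them with hypothalamus or oligodendrocyte markers. The mean of the 14 hypothalamus markers, of which Hdc is one, gave r = -0.66 with Hcrt, 0.66 with Qrfp and 0.61 with Hcrtr2 (permutation, adjusted p = 0.0152, 0.0258 and 0.0342 over 40 relations). Its rho was -0.62, 0.68 and 0.56 (permutation, adjusted p = 0.0454, 0.0314 and 0.0699), so the relation with Hcrtr2 passed in r alone. Single markers of this list differed in sign. Their r ran from -0.74 (Hdc) to 0.31 (Trh) with Hcrt and from -0.39 (Crh) to 0.81 (Ghrh) with Qrfp. With Hcrtr2 it ran from -0.37 (Trh) to 0.73 (Hdc). The mean of Mog and Mag, the 2 measured oligodendrocyte markers, gave r = 0.73 with Hcrt and -0.58 with Qrfp (permutation, adjusted p = 0.0150 and 0.0150; rho = 0.63 and -0.69). The thalamus markers gave r = -0.64 with Qrfp (permutation, adjusted p = 0.0935) and 0.18 with Hcrt. The pituitary markers, of which Prl, Tshb and Fshb lay below the background measure, gave r = -0.20 with Hcrt and -0.52 with Qrfp (permutation, adjusted p = 0.699 and 0.0935). No list of neighbouring tissue passed with any member. The part of these tissues in the members' deviations was not tested.

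**Figure D4:**
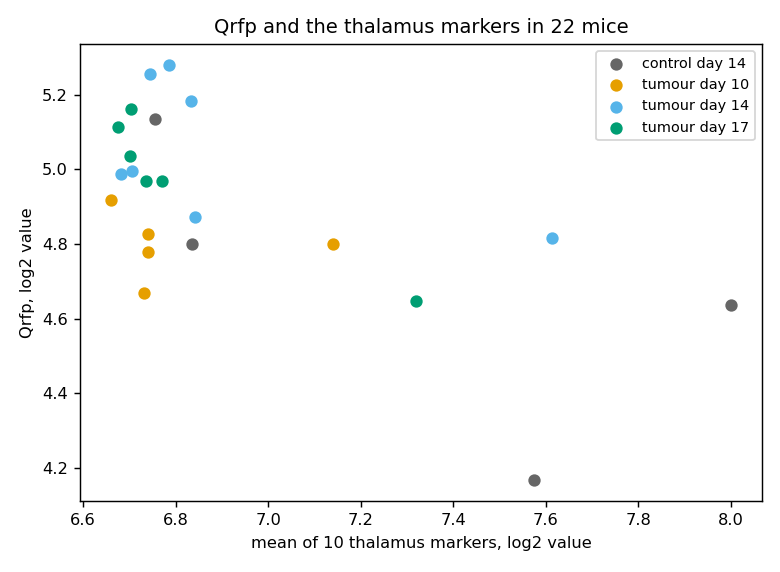
Mean of the 10 thalamus markers (x axis) against Qrfp (y axis), both as log2 values, in 22 mice coloured by group. The controls with the highest thalamus means are the 2 controls with the lowest Qrfp, 4.17 and 4.64.

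Likeness was compared over 13017 genes with a mean above the background measure. Names that begin with Olfr, Vmn, Snor, Scarna, Mirlet, Rn, n-R or LOC were left out. So were names that begin with Gm or Mir and a digit or contain Rik. Among the genes kept, the deviations most like those of Hcrt were those of Htr2c, the serotonin receptor 2C gene (r = 0.81), Slc2a13 (0.81), Rinl (0.80), Asah2 (0.79) and Nrxn3 (0.78). The most opposed were Prph, an intermediate filament of neurons (-0.85), Gpr50 (-0.83) and Tbx19 (-0.82). For Qrfp the most alike were Rxrg, a retinoid X receptor gene (0.89), Arhgap1 (0.85), Dnah10 (0.84), Slit2 (0.83) and Cpsf6 (0.83), and the most opposed were Prep (-0.87), Gadl1 (-0.84) and Tafa2 (-0.83). For Hcrtr1 the most alike were Slc49a4 (0.79), Vaultrc5 (0.77), Mrps15 (0.75), Pik3cg (0.75) and Clcn2 (0.75), and the most opposed were Sap130 (-0.78), Capzb (-0.78) and Arpp19 (-0.75). For Hcrtr2 the most alike were Fstl4 (0.81), Stk36 (0.81), Sorbs2 (0.81), Mypn (0.80) and Prph (0.80). The most opposed were Hcrt itself (-0.80), Bzw1 (-0.79) and Htr2c (-0.75). These are the extremes of many genes over 22 arrays and carry no test.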

How the data were processed

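The deposited log2 values came from 22 hypothalamus arrays, which the authors made with RMA (background correction, normalization and probe set summary), per the submitters' processing notes. Its version, genome build and annotation are not given in the sources used here. RNA had an integrity number above 8, per the labels' protocols. The table held 35556 probe sets, of which the platform annotation gives 21218 to 1 gene, 1881 to several and leaves 12457 unnamed here. The probe set with the highest mean stood for each gene. As a background measure, the 95th percentile over 1182 probe sets of olfactory or vomeronasal receptors was used. The medians of the arrays lay between 5.27 and 5.34, any pair of arrays correlated at 0.980 to 0.995 over probe sets, and 0 pairs were identical.

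Group means of all arrays were modelled in limma 3.58.1 under R 4.3.3 (eBayes, 18 residual degrees of freedom, 7 comparisons, two-sided), and adjusted p are Benjamini-Hochberg over all 18820 genes, with a threshold of 0.05. Exact permutation tests used scipy 1.17.1. The labels describe separate replicates; where they do not say more, p-values measure the spread between these samples. The number of arrays limits the precision. The members and lists were chosen with earlier results of these data known. Named genes were the members, the QRFP receptors, the 5 most alike and 3 most opposed genes per member, and, per list of pathway genes, those past the threshold or the 2 with the smallest p. Marker genes and genes of the relations within groups were named after their values were seen. The fit was tested on simulated data. Alternatives changed moderation, array weights, scaling, filters, probe set rule, samples, replicate block, accession run and marker covariates, and left out each array in turn. The red cell covariate and the earlier run alone were added after the data were seen.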

Additional observations from a re-analysis of the deposited data

Results flagged for a closer look

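In 6 of 24 checks of a gene in a group, 1 mouse stood apart from the others. The gap of the extreme mouse to its nearest neighbour, against the range of its group, marked each of them. Chance alone flags about 1 in 20 of independent checks. These checks share arrays, and day 10 replicate 3 and day 14 replicate 3 were each flagged for more than 1 gene. The count can therefore not be read as an excess over that rate. Hcrt was lowest in tumour day 10 replicate 3 at 9.17, where the other 4 mice of that group ranged from 10.16 to 10.55. Hcrt was also lowest in tumour day 14 replicate 3 at 9.33. Hcrtr2 was highest in that same day 10 mouse at 7.14. In these 2 mice Hdc stood at 8.61 and 8.75, Tac1 at 9.18 and 9.12, and Cga, the pituitary glycoprotein hormone alpha gene, at 8.33 and 7.69, the 2 highest of 22 for each of these genes. The other pituitary markers did not all stand high with Cga: Gh was at 4.00 and 4.02, ranks 5 and 6 of 22 from the lowest, and Lhb was at rank 22 in the day 10 mouse and rank 9 in the day 14 mouse. The other histamine neuron genes did not all stand high with Hdc. In the day 10 and day 14 mouse Slc18a2 was at ranks 15 and 16 from the lowest, Hrh1 at 14 and 15 and Hrh3 at 16 and 20. Hnmt was at ranks 5 and 22, Hrh2 at 9 and 1 and Maob at 22 and 5. Meis2 stood at 5.53 and 6.15, the 2 lowest. Over genes, the median correlation of each of these arrays with the others was 0.995, ranks 10 and 9 of 22 from the lowest. Qrfp was lowest in tumour day 17 replicate 1 at 4.65. Hcrtr1 was highest in control replicate 2 at 5.86, where the other 3 controls stood at 5.75. Qrfprl was lowest in tumour day 14 replicate 3 at 5.09.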

How the results depend on the processing

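No member passed the threshold in any of 272 fitted comparisons per member (lowest limma adjusted p 0.146 for Hcrt, 0.0587 for Qrfp, 0.423 for Hcrtr1 and 0.616 for Hcrtr2). Each is 1 comparison in 1 alternative setting, and these overlap. With 1 probe set per member, a change of the probe set rule repeats the main difference. Signs turned in 11 of these comparisons for Hcrt, 4 for Qrfp, 30 for Hcrtr1 and 23 for Hcrtr2, and the cause was not tested. For Hcrt all of them lay between tumour-bearing groups, and no comparison with control turned. For Qrfp they lay on day 10 against control and between days 14 and 17. Array weights gave Hcrtr1 -0.038 on day 14 and -0.022 from day 10 to day 14, and Hcrtr2 0.022 from day 10 to day 17. Centring arrays on their median gave Hcrtr1 -0.0072 on day 14, and the term for the accession run gave -0.019. The later run alone (3 controls) gave Qrfp -0.025 on day 10, Hcrtr1 -0.065 on day 14 and Hcrt -0.073 from day 14 to day 17. The thalamus marker covariate gave Qrfp -0.088 and Hcrtr1 0.040 on day 10, Hcrtr1 0.0025 and Hcrtr2 -0.012 on day 17, and 0.033 and -0.018 for these receptors over the tumour-bearing groups. The hypothalamus marker covariate gave Hcrtr2 -0.024 on day 17, Hcrtr1 0.0021 and Hcrtr2 -0.016 over the groups, Hcrt -0.10 and Qrfp 0.012 from day 14 to day 17, and Hcrtr1 0.0069 from day 10 to day 17. The red cell covariate, chosen after seeing the data, gave Hcrtr1 -0.035 and Hcrtr2 0.077 on day 14, and Hcrtr2 0.026 from day 10 to day 17. The earlier run alone (1 control), also chosen after seeing the data, gave Hcrtr1 0.12 and Hcrtr2 -0.046 on day 10, Hcrtr2 0.020 on day 14, Hcrtr1 0.13 and Hcrtr2 -0.042 on day 17, and 0.12 and -0.023 for these receptors over the groups. From day 10 to day 14 it gave Hcrt -0.31 and Hcrtr2 0.066, from day 14 to day 17 Hcrtr2 -0.062, and from day 10 to day 17 Hcrt -0.055, Hcrtr1 0.0082 and Hcrtr2 0.0041. For Qrfp against control on days 10, 14 and 17 the earlier run gave 0.58, 0.81 and 0.69 and the later run -0.03, 0.25 and 0.25; for Hcrt they gave -0.34, -0.65 and -0.40, and -0.53, -0.26 and -0.33.

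With each array left out in turn, Hcrt ran from -0.54 to -0.19 on day 10, from -0.48 to -0.26 on day 14 and from -0.41 to -0.25 on day 17, Qrfp from -0.059 to 0.26, from 0.20 to 0.52 and from 0.13 to 0.45. Hcrtr1 ran from -0.076 to 0.091, from -0.018 to 0.041 and from -0.12 to 0.0083, and from -0.042 to 0.018 over the groups. Hcrtr2 ran from -0.019 to 0.11 on day 10 and from -0.058 to 0.046 on day 14. From day 10 to day 14 Hcrt ran from -0.21 to 0.16, Hcrtr1 from -0.078 to 0.089 and Hcrtr2 from -0.13 to 0.013. From day 14 to day 17 Hcrt ran from -0.063 to 0.12. From day 10 to day 17 Hcrt ran from -0.14 to 0.21, Hcrtr1 from -0.14 to 0.026 and Hcrtr2 from -0.063 to 0.066.

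Exact permutation p-values moved as follows. Centring gave 0.0606 for Qrfp on day 14 and 0.0570 over the groups, with Hcrtr1 turned at 0.848 on day 14. A second quantile normalization gave 0.0515 and 0.0621 for these Qrfp tests and 0.0529 for Hcrt over the groups. The later run gave Hcrt 0.1 on day 17, the smallest p its 3 controls and 3 mice allow, and 0.175 over the groups, Qrfp 0.9 on day 10, 0.171 on day 14 and 0.189 over the groups, and Hcrtr1 0.286 on day 14. With 1 array left out, exact permutation p ran from 0.0316 to 0.147 for Hcrt over the groups, and for Qrfp from 0.0536 to 0.696 on day 10, 0.00833 to 0.192 on day 14, 0.0238 to 0.429 on day 17 and 0.00451 to 0.401 over the groups. For Hcrtr1 it ran from 0.314 to 1 on day 10, 0.471 to 0.971 on day 14, 0.238 to 0.94 on day 17 and 0.714 to 0.976 over the groups, and for Hcrtr2 from 0.543 to 0.929 on day 10 and 0.567 to 1 on day 14.

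Replicate numbers were not taken to pair the mice, because no label says so. Same-numbered mice were still somewhat alike: of 28 such pairs of different groups 15 had deviations that correlated above 0.1. The median was 0.12 (from -0.19 to 0.35), against -0.01 for other numbers. Within each group the lower numbers belong to the earlier accession run. Between groups the median correlation was 0.08 within a run and -0.09 across runs. Whether number or run accounts for this likeness was not tested. The replicate block gave Hcrtr1 0.013 on day 10, 0.0097 on day 17 and 0.034 over the groups, called no member, and called 24, 140, 616 and 342 genes on days 10, 14 and 17 and over the groups, against 20, 41, 211 and 121. Over all alternatives that kept every mouse or a run these counts ran from 0 to 76, 0 to 140, 0 to 616 and 0 to 552, and from 0 to 19 between days 10 and 17. With 1 array left out they ran from 0 to 25, 2 to 115, 37 to 382 and 2 to 195. A fit of only 2 groups at a time gives the mean of the tumour-bearing groups no value. The number of arrays and the single day of controls limit these comparisons.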
